A study of Mus musculus with 27 samples.

Results

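Confluent cultures of the TAMH line that received control medium were compared 6 h and 2 h after dosing. TAMH cells are hepatocytes immortalised by a transforming growth factor alpha transgene in mice. The comparison holds the 3 arrays titled as control at 6 h and the 3 titled as control at 2 h, 6 of the 27 arrays of the series. The other arrays were control cultures at 24 h and cultures dosed with acetaminophen (APAP) or its regioisomer AMAP, each at 2 mM, and harvested at 2, 6 or 24 h. All cultures shared serum-free medium with dexamethasone, nicotinamide, gentamicin, insulin, transferrin and selenium, and cell passages between 25 and 35. Each treatment was grown in 2 dishes, and each group holds 3 arrays with the numbers 30, 31 and 32. Whether those 3 came from separate cultures is not given in the sources used here. The p-values therefore reflect only the spread among arrays within groups, which may be technical. That spread was pooled over all 27 arrays of the series, treated cultures included. Arrays from before dosing were not analysed here. The title of the series names mitogen-activated protein kinases under acetaminophen, and the control cultures show which transcripts differed between the early harvests with neither compound present.

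Fresh medium, handling and the hormones in it act on cultured cells through kinase cascades and through transcription factors such as SRF, the YAP and TEAD pair, NF-kB, FOXO factors and the glucocorticoid receptor. Their first targets, the immediate early genes, are transcribed without new protein synthesis and are often transient. Other transcripts follow metal content (zinc exporters, through the zinc sensor MTF-1), DNA synthesis (clustered histone genes) or the circadian clock.

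Signals are log2 values per probe set, normalised by the authors, and a difference of 1 is a doubling. Array medians lay between 7.26 and 7.33, and arrays of a group correlated with r of 0.995 to 0.996 across genes, which are not independent replicates. On the first principal component of these 6 arrays (31.7% of the variance) the 6 h array 32 stood farthest out, at 18.7 against 3.47 and 3.51 for the other 6 h arrays and -13.2 to -2.65 for the 2 h arrays. The 19 hepatocyte markers measured had a median percentile of 97.6 among the genes tested, with albumin (Alb) at a mean of 13.61 at 2 h and 13.70 at 6 h. The 10 endothelial markers lay at percentile 26.6, the 11 macrophage and leukocyte markers at 30.2 and the 14 fibroblast and stellate markers at 42.8. The 7 biliary and progenitor markers lay high, at percentile 85.1 (mean level per array 9.25 to 9.60 at 2 h and 9.34 to 9.48 at 6 h), with the bile duct keratin Krt19 at 9.71 at 2 h and 9.88 at 6 h. The fibroblast markers vimentin (Vim, 12.96 at 2 h) and decorin (Dcn, 11.93) were bright. None of the 61 measured marker entries in 5 lists passed the limma test between 2 h and 6 h, and 3 had an unadjusted p under 0.05. In bulk RNA, fewer cells with a transcript and less of it per cell cannot be told apart.

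From 2 h to 6 h, 141 of 19938 genes passed the test (0.707%), 88 of them higher at 6 h (0.441%) and 53 lower (0.266%). A gene passed, or was called, where its adjusted p (Benjamini-Hochberg, over all genes tested) in limma was under 0.05. The changes were small. Their median size was 1.45-fold among the higher and 1.44-fold among the lower genes, and 8 genes reached 2-fold, 5 higher and 3 lower. Genes for secreted cytokines and matrix proteins led the increases, and the zinc exporter Slc30a1 and histone genes led the decreases. In each of the 141 genes all 3 arrays of 1 time lay above all 3 of the other, which also held for 2962 genes in all (14.9%), 1656 higher (8.31%) and 1306 lower (6.55%). At an unadjusted p under 0.05 there were 1861 genes, and the median difference over all genes was 0.01. The count fell when any 1 of the 6 arrays was left out. It was 101, 73 and 27 without the 2 h array 30, 31 or 32, and 72, 78 and 42 without the 6 h array 30, 31 or 32, and 18 genes were called under each of these 6 omissions. With a number left out of all groups, so that both times had 2 arrays, the count was 20 without 30, 25 without 31 and 17 without 32, and Slc30a1 was the 1 gene called in all 3.

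**Figure D1:**
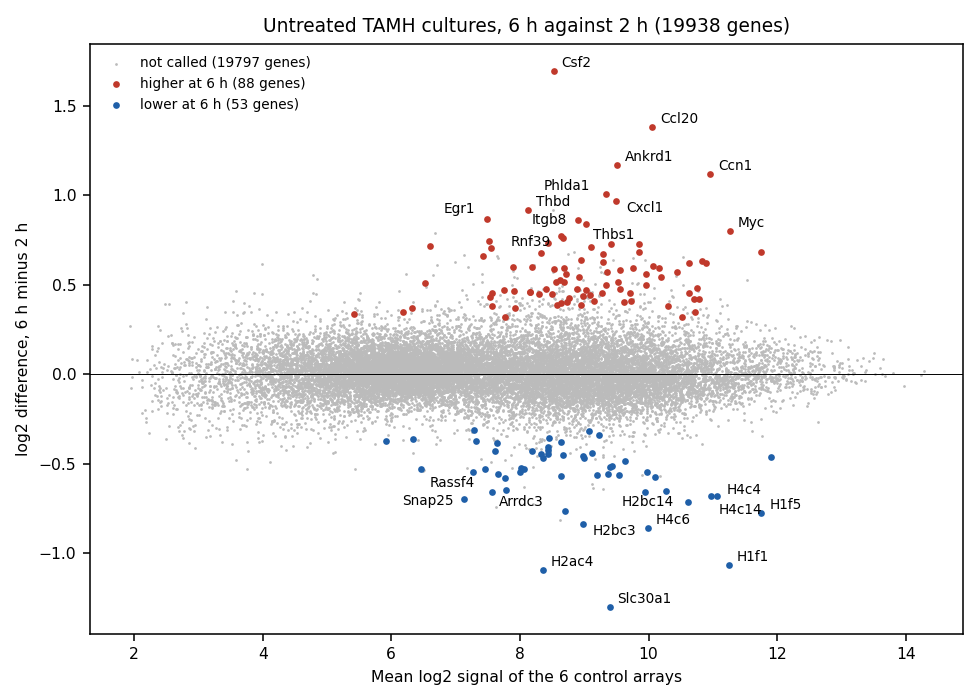
Difference between 6 h and 2 h in control cultures (vertical axis, log2) against the mean log2 signal of the 6 arrays (horizontal axis), 1 point per gene for 19938 genes. The 88 genes called higher are red and the 53 called lower are blue, with the 12 largest changes each way named; Csf2 stands highest at 1.70 and Slc30a1 lowest at -1.30.

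The upstream sequence of 6 genes that led these changes is shown because each holds a short motif known from promoters of its class. They are the 250 bases before the RefSeq start site (GRCm38.p6), written 5′ to 3′ on the gene's strand, with matches in capitals. Motifs were searched on both strands, and a match describes the letters only. The list of motifs was extended after the values were seen, and each motif shown in capitals was among those added. Their shares among genes of these data are therefore description only. Of the motifs planned beforehand, the CCAAT box (ATTGG) stood in 78.6% of start sites of histones called lower. It stood in 55.0% for the other genes called lower, 30.7% for genes called higher and 33.8% of all start sites. For Slc30a1 (chr1:191906531-191906780, plus strand) the capitals are 1 match to TGCACNC, a form of the metal response element core, on the opposite strand. This form stood in 10.4% of the 32851 start sites in the table. The other form searched, TGCGCNC, was absent from this sequence and stood in 12.5% of start sites.

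Slc30a1: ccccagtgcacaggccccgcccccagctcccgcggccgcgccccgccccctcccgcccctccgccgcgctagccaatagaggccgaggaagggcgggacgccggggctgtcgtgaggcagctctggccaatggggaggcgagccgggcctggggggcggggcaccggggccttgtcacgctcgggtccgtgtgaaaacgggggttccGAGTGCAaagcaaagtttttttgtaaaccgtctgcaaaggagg

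For the chemokine gene Cxcl1 (chr5:90890995-90891244, plus strand) they are GGAATTTCC, a form of the NF-kB motif, which 94 of 32851 start sites held (0.3%). Among genes called higher 2 of 88 start sites held this form (2.3%). Another form of the NF-kB motif was also searched, and 0 of these 88 start sites held it.

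Cxcl1: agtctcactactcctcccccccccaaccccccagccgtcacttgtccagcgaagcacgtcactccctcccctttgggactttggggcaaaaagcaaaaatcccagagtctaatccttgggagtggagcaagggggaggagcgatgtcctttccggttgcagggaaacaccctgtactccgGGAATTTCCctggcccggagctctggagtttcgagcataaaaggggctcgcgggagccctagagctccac

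For Ankrd1 (chr19:36119845-36120094, minus strand) and Ccn1 (chr3:145649986-145650235, minus strand) the capitals are the TEAD motif GGAATG or its reverse complement, which 12.6% of start sites held. Of the 12 genes with the largest increases 7 had a sequence in the table, and 4 of these held it (Ankrd1, Ccn1, Ccl20 and Csf2). Among all called higher the share was 19.3% of start sites.

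Ankrd1: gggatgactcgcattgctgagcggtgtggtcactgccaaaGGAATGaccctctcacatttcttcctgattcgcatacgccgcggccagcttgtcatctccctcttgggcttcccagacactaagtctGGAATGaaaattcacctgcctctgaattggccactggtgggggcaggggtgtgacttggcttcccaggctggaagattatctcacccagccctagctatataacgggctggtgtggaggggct

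Ccn1: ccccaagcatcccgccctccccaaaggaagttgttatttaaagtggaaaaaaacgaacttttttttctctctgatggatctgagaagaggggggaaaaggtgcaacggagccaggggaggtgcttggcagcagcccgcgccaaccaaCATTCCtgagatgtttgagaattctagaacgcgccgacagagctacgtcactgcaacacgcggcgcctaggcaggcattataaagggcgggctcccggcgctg

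For the histone genes H2bc3 (chr13:23746484-23746733, plus strand) and H2bc14 (chr13:21721794-21722043, plus strand) they are the octamer ATTTGCAT. It stood in 5 of 14 start sites of histones called lower (35.7%) and in 1.6% of all start sites. H2B promoters are known to carry it.

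H2bc3: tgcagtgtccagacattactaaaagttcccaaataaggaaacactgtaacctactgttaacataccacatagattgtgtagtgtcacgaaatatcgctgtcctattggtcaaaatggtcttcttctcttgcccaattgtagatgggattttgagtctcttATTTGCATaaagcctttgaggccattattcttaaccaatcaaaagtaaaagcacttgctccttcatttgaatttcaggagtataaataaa

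H2bc14: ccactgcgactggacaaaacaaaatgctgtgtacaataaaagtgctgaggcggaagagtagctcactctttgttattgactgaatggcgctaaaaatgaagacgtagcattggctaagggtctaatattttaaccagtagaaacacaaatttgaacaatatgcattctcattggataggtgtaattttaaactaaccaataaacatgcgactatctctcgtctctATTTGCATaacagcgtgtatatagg

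Cytokine and chemokine transcripts gave the largest increases. Csf2 (probe set 10385912), which encodes the growth factor GM-CSF, read 7.88, 7.60 and 7.56 in the 2 h arrays and 9.54, 8.65 and 9.93 in the 6 h arrays, in the order 30, 31, 32. The groups did not overlap, and the 6 h arrays spread widely, with array 31 lowest. Csf2 rose by 1.70 ± 0.32 (3.24-fold, limma adjusted p = 0.0106), where ± gives the standard error of the difference with 3 arrays a group. Ccl20 (probe set 10347888), a chemokine for CCR6-bearing lymphocytes and dendritic cells, read 9.64, 9.35 and 9.13 at 2 h and 10.67, 10.24 and 11.35 at 6 h. It rose by 1.38 ± 0.26 (adjusted p = 0.0106), with array 32 the lowest at 2 h and the highest at 6 h. Cxcl1, a neutrophil chemokine, rose by 0.97 ± 0.21 (adjusted p = 0.0268), from 9.01, 9.16 and 8.87 to 9.83, 9.78 and 10.34. The monocyte chemokine Ccl2 rose by 0.68 ± 0.15 (adjusted p = 0.0304).

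Csf2 is not in the list of NF-kB targets, chemokines and cytokines, of which 24 members were measured. Of these 3 rose (Ccl20, Cxcl1 and Ccl2) and 0 fell, 23 had a positive difference, and the median was 0.30 against 0.01 over all genes. Among chemokines taken by symbol after the values were seen, the same 3 of 34 were called. Csf1, the macrophage growth factor, had a difference of 0.65 (limma adjusted p = 0.0582), and Csf3 one of -0.01. No cytokine named here kept its call without each array. Without the 6 h array 32 or the 2 h array 32 all 4 (Csf2, Ccl20, Cxcl1, Ccl2) missed the threshold, at differences of 0.59 to 1.42 and 0.69 to 1.63. Without the 6 h array 30, Csf2, Cxcl1 and Ccl2 missed it (0.63 to 1.61), and without the 2 h array 30 or 31 Cxcl1 and Ccl2 did (0.72 to 0.97 and 0.65 to 1.04). Leukocyte markers were at a mean of 6.48 to 6.56 per array at 2 h and 6.48 to 6.70 at 6 h, with the pan-leukocyte gene Ptprc at 5.90 and 5.82 and the macrophage gene Adgre1 at 5.00 and 5.05. Their part in the cytokine signals was not tested.

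**Figure D2:**
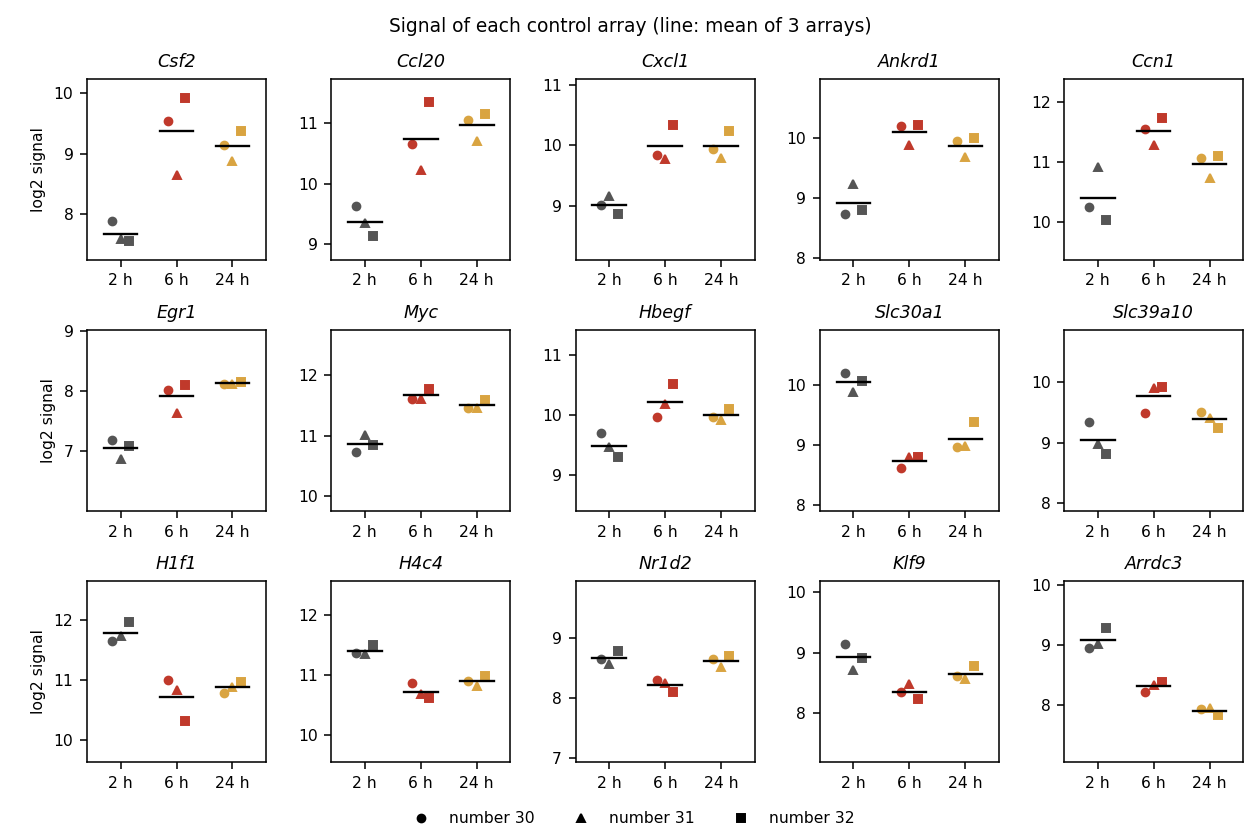
Signal of each control array (log2, vertical axis, 3 units or more in each panel) at 2, 6 and 24 h for 15 genes; marker shape gives the array number and the black line the mean of 3 arrays. For each gene the 2 h and 6 h arrays do not overlap, as for Slc30a1, at 9.89 to 10.19 at 2 h and 8.63 to 8.80 at 6 h.

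From the list of SRF and YAP targets of the cytoskeleton, Ankrd1 and the matrix genes Ccn1 and Thbs1 were the second leading group. No actin, transgelin, calponin, tropomyosin or myosin gene of that list was called. Ankrd1, a nuclear and sarcomeric ankyrin repeat protein and a standard YAP target, read 8.74, 9.23 and 8.81 at 2 h and 10.19, 9.87 and 10.21 at 6 h. Array 31 was the highest at 2 h and the lowest at 6 h, and Ankrd1 rose by 1.17 ± 0.22 (limma adjusted p = 0.0106). Ccn1, a secreted integrin ligand, showed the same arrangement, with 10.25, 10.91 and 10.03 followed by 11.55, 11.28 and 11.72 and a rise of 1.12 ± 0.24 (adjusted p = 0.0249). Thrombospondin 1 (Thbs1), a matrix glycoprotein that activates latent TGF beta, rose by 0.84 ± 0.17 (adjusted p = 0.0178), from 8.78, 8.80 and 8.23 to 9.33, 9.36 and 9.63. These were the 3 called of 20 list members measured, none was called lower, and 17 differences were positive. The median was 0.20, beside 0.12 in AMAP cultures and 0.03 in APAP cultures. Ccn2, the nearest relative of Ccn1, had 0.64 with adjusted p = 0.256. Without the 2 h array 32 or the 6 h array 32 all 3 genes missed the threshold (0.65 to 1.11 and 0.74 to 1.11), and Ccn1 also missed it without the 2 h array 30 (1.04) or the 6 h array 30 (1.10).

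Of 27 immediate early genes 3 were called higher and 0 lower, against 0.441% and 0.266% of all genes. The median difference was 0.14, beside -0.05 in AMAP cultures and -0.06 in APAP cultures. At an unadjusted p under 0.05 in limma 9 of the 27 were higher and 2 lower. Negative differences numbered 9, down to -0.63. Egr1, a zinc finger transcription factor of the growth response, read 7.19, 6.87 and 7.08 at 2 h and 8.01, 7.63 and 8.10 at 6 h, a rise of 0.87 ± 0.16 (limma adjusted p = 0.00696). Myc, which drives growth and ribosome production, rose by 0.80 ± 0.16 (adjusted p = 0.0124), from 10.74, 11.01 and 10.86 to 11.62, 11.61 and 11.77. Zfp36, which speeds decay of AU-rich cytokine mRNAs, rose by 0.67 ± 0.11 (adjusted p = 0.00384). The 6 h arrays of these genes lay close together except for Egr1 in array 31. The AP-1 genes did not pass. Fos had 0.18 ± 0.12, Jun -0.16 ± 0.21 and Atf3 0.20 ± 0.24, and in each the groups overlapped. Jun read 9.61 in the 2 h array 31 against 9.14 and 9.18 in the other two.

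Growth factor signalling genes moved in few members. Hbegf, a ligand of the EGF receptor, rose by 0.73 ± 0.17 (limma adjusted p = 0.0406) and was the 1 gene called of 12 EGF receptor ligands and receptors. It read 9.70, 9.46 and 9.31 at 2 h and 9.96, 10.18 and 10.51 at 6 h, the groups lying 0.26 apart at their nearest. Phlda1, a pleckstrin homology protein induced by mitogens, rose by 1.01 ± 0.17 (adjusted p = 0.00393). None of 17 MAP kinase phosphatases and feedback inhibitors passed limma's test (4 higher and 1 lower at an unadjusted p under 0.05). The ERK phosphatase Dusp6 had 0.42 ± 0.15 (adjusted p = 0.276), Spry2, an inhibitor of receptor tyrosine kinase signalling, 0.42 ± 0.13 (adjusted p = 0.181) and Dusp1 -0.18 ± 0.18. Phlda1 and Zfp36 were called without each single array, but both missed the threshold with number 31 (0.91 and 0.65) or number 32 (1.01 and 0.63) left out of all groups. Egr1 missed the threshold without the 6 h array 32, at 0.78. Myc missed it without the 2 h array 30 (0.74), 2 h array 32 (0.80) or 6 h array 32 (0.75), and Hbegf without the 2 h array 31 (0.71), 2 h array 32 (0.64), 6 h array 31 (0.75) or 6 h array 32 (0.58).

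Among the remaining large increases, thrombomodulin (Thbd), the endothelial and epithelial receptor that turns thrombin to protein C activation, rose by 0.92 ± 0.14 (limma adjusted p = 0.00252). It read 7.88, 7.59 and 7.54 at 2 h and 8.67, 8.29 and 8.79 at 6 h. Itgb8, an integrin subunit that activates latent TGF beta, rose by 0.86 ± 0.17 (adjusted p = 0.0126), and Rnf39, a RING finger protein, by 0.77 ± 0.14 (adjusted p = 0.00736). The death receptor Fas was the 1 gene called of 23 p53 targets, at 0.48 ± 0.10 (adjusted p = 0.0223). None of 26 TGF beta and matrix genes passed limma's test (3 higher and 4 lower at an unadjusted p under 0.05), and Tgfb2 had 0.59 ± 0.17 (adjusted p = 0.129). Thbd was called without each single array, but not with number 32 left out of all groups (0.75). Fas lost its call without each array except the 2 h array 30 (0.44 to 0.49), Itgb8 without the 2 h array 31 (0.78), 2 h array 32 (0.78), 6 h array 30 (0.83) or 6 h array 32 (0.77), and Rnf39 without the 2 h array 32 (0.66).

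The zinc exporter Slc30a1 gave the largest decrease and the smallest p. Slc30a1 (probe set 10352777) moves zinc out of the cytosol, and its transcription follows zinc through MTF-1. It read 10.19, 9.89 and 10.06 at 2 h and 8.63, 8.80 and 8.80 at 6 h, so the groups lay 1.08 apart at their nearest. It fell by 1.30 ± 0.13 (2.46-fold, limma adjusted p = 6.79e-06) and was called without each single array, at 1.23 to 1.38 on the log2 scale, and without each number in all groups, at 1.17 to 1.41. The zinc importer Slc39a10, of the opposite transport direction, rose by 0.73 ± 0.16 (adjusted p = 0.0268), from 9.35, 8.99 and 8.81 to 9.49, 9.91 and 9.93. Its call was lost without the 2 h array 31 (0.70) or 32 (0.61) and without the 6 h array 31 (0.66) or 32 (0.65). These were the 2 genes called of 19 in the list of metal response and selenoprotein genes. They were also the 2 called of 24 zinc exporters and importers taken by symbol after the values were seen. The metallothioneins Mt1 and Mt2, zinc-binding proteins that also follow MTF-1, were at 12.72 and 12.89 at 2 h with differences of -0.07 and -0.10, and neither passed. At 24 h the control mean of Slc30a1 was 9.11 and that of Slc39a10 was 9.39.

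Clustered histone genes, whose mRNAs accumulate during DNA synthesis and lack a poly(A) tail, made up 15 of the 53 lower genes. H2ac4 (probe set 10404063) read 8.89, 8.80 and 9.03 at 2 h and 8.13, 7.97 and 7.34 at 6 h, a fall of 1.10 ± 0.21 (limma adjusted p = 0.0094). The linker histone gene H1f1 read 11.64, 11.73 and 11.97 followed by 11.00, 10.84 and 10.31, and fell by 1.06 ± 0.18 (adjusted p = 0.004). In both, array 32 was the highest at 2 h and the lowest at 6 h. H4c4 fell by 0.68 ± 0.12 (adjusted p = 0.00454) and H4c14 dropped by 0.68 ± 0.11 (adjusted p = 0.00383), with a narrower spread between arrays. H4c4 read 11.37, 11.35 and 11.50 at 2 h and 10.86, 10.69 and 10.62 at 6 h. H4c6 (-0.86 ± 0.15), H2bc3 (-0.84 ± 0.18), H1f5 (-0.78 ± 0.18), H2bc14 (-0.72 ± 0.17) and H2ac15 (-0.65 ± 0.11) fell as well.

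In the list of 14 replication-dependent histones 7 fell, 0 rose and the median was -0.65. Taken by symbol after the values were seen, 29 clustered histone genes gave 15 called lower and 0 higher, with 28 negative differences and a median of -0.56. H2bc4 was the exception, at 0.13. The 11 histone genes outside that class (variants and germ line H1 genes) had 0 called (1 at an unadjusted p under 0.05 in limma) and a median of 0.01, among them H2az1 at -0.11 and H2ax at -0.14. Probe sets of this family can share near-identical sequence, so members are not independent and the gene to which a signal belongs is uncertain. Without the 6 h array 32, 5 of the 15 were called, and without the 2 h array 32, 7 were. The count was 10 without the 2 h array 30, the 2 h array 31 or the 6 h array 31, and 14 without the 6 h array 30. H1f1, H4c4, H4c6, H4c8 and H4c14 were called each time. With a number left out of all groups, 5 of the 15 were called without 30, 0 without 31 and 4 without 32. Of those 5 genes H1f1 missed the threshold without 31 (-1.15), H4c4 and H4c14 without 30 (-0.77 and -0.73) or 31 (-0.69 and -0.73), and H4c6 and H4c8 without 31 (-0.90 and -0.57) or 32 (-0.68 and -0.51). In those not called without a single array, differences ran from -0.86 to -0.43 without the 6 h array 32 and from -1.03 to -0.39 without the 2 h array 32.

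No other listed cell cycle gene was called. None of 35 DNA replication and G1/S genes passed, although 32 differences were negative (median -0.13), and 6 had an unadjusted p under 0.05 on the lower side. In 16 of the 35 all 6 h arrays lay below all 2 h arrays, which held for 6.55% of all genes. Chaf1b, which unlike Chaf1a is not in the list, was called lower, but its call held only without the 2 h array 30. The DNA polymerase epsilon gene Pole had -0.28 ± 0.09 (limma adjusted p = 0.163) and the repressor E2f8 -0.30 ± 0.11 (adjusted p = 0.279). None of 33 mitosis genes passed limma's test (median -0.10, 1 at an unadjusted p under 0.05). The proliferation marker Mki67 had 0.01 ± 0.09, the mitotic kinase Plk1 -0.06 ± 0.22 and cyclin D1 (Ccnd1) 0.08 ± 0.10, and the groups overlapped in all 3.

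**Figure D3:**
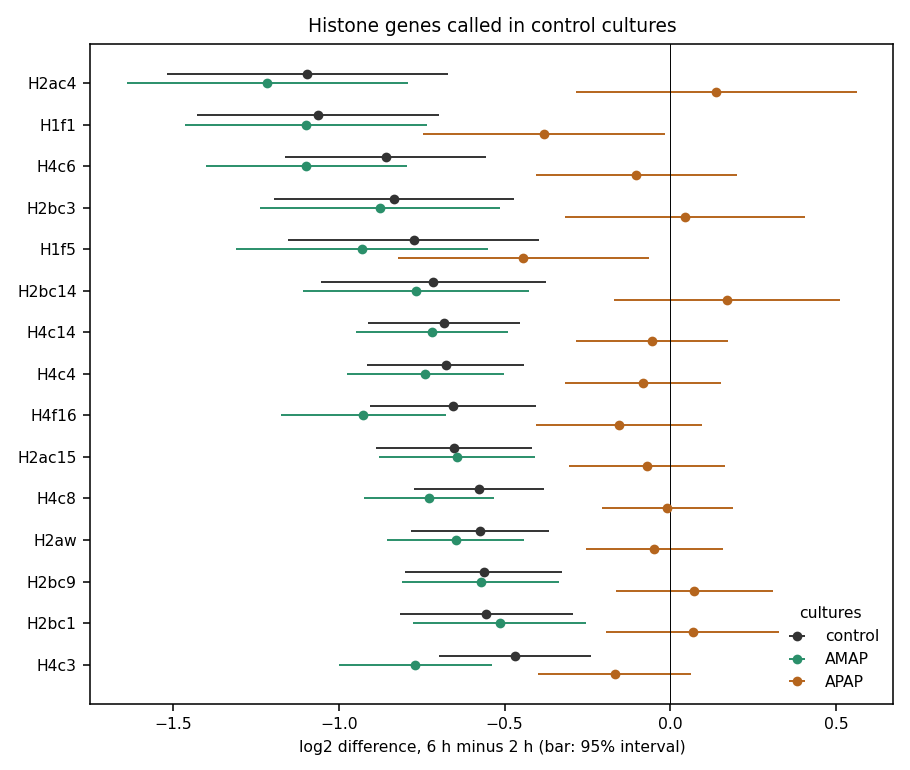
Difference between 6 h and 2 h (log2, horizontal axis) for the 15 histone genes called lower in control cultures, in control (black), AMAP (green) and APAP (brown) cultures; bars are 95% intervals of the limma model. Control and AMAP points lie below 0 throughout, from -1.10 to -0.47 in control, and APAP points lie between -0.44 and 0.17.

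Those genes under the hormones of the medium that were called fell. Of 22 glucocorticoid receptor targets 2 were called lower, against 0.266% of all genes, and the median was -0.17. In 9 of the 22 all 6 h arrays lay below all 2 h arrays, against 6.55% of all genes. In 2 they all lay above, against 8.31% of all genes. Klf9, a Kruppel-like repressor, fell by 0.57 ± 0.12 (limma adjusted p = 0.0205), reading 9.14, 8.71 and 8.91 at 2 h and 8.34, 8.48 and 8.24 at 6 h. Ddit4, an inhibitor of mTORC1, fell by 0.52 ± 0.12 (adjusted p = 0.0429). It read 9.67, 9.59 and 9.72 and then 9.11, 9.30 and 9.02. The classic targets Fkbp5 (-0.18 ± 0.09), Tsc22d3 (-0.35 ± 0.12) and Sgk1 (0.08 ± 0.10) did not pass. Arrdc3, an arrestin-domain protein that FOXO factors induce, fell by 0.77 ± 0.19 (adjusted p = 0.0473) and was the 1 called of 20 FOXO and insulin-regulated genes. The insulin-repressed genes Igfbp1 (-0.30 ± 0.38), Pck1 (-0.20 ± 0.12) and Irs2 (0.14 ± 0.12) did not pass.

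The clock list of 19 genes had 2 called lower, against 0.266% of all genes. In 9 of the 19 all 6 h arrays lay below all 2 h arrays, against 6.55% of all genes. In 3 they all lay above, against 8.31% of all genes. Nr1d2, a heme-binding repressor, fell by 0.45 ± 0.09 (limma adjusted p = 0.0178), from 8.64, 8.56 and 8.79 to 8.30, 8.24 and 8.10. The repressor Cry2 fell by 0.41 ± 0.09 (adjusted p = 0.0314), from 8.62, 8.64 and 8.64 to 8.22, 8.29 and 8.17. The oscillator genes Per1 (-0.17 ± 0.09), Per2 (0.06 ± 0.09), Nr1d1 (0.30 ± 0.12), Dbp (-0.25 ± 0.10), Arntl (-0.24 ± 0.10) and Cry1 (0.21 ± 0.10) did not pass. At 24 h Nr1d2 had a mean of 8.62 and Cry2 one of 8.27. Lpin1, a phosphatidate phosphatase of lipid synthesis, fell by 0.46 ± 0.11 (adjusted p = 0.038) and was the 1 called of 24 fatty acid synthesis and storage genes. None of these calls held under each omission of 1 control array. Arrdc3, Cry2 and Ddit4 lost theirs whichever array was left out, at -0.84 to -0.66, -0.44 to -0.38 and -0.60 to -0.46. All 6 (Nr1d2, Cry2, Klf9, Ddit4, Arrdc3, Lpin1) missed the threshold without the 2 h array 32, at -0.66 to -0.39, and 5 without the 6 h array 32 (all but Lpin1, -0.80 to -0.38), the 2 h array 30 (all but Nr1d2, -0.84 to -0.41) or the 6 h array 30 (all but Nr1d2, -0.72 to -0.40). Arrdc3, Cry2 and Ddit4 also missed it without the 2 h array 31 (-0.80 to -0.40), as they did with Lpin1 without the 6 h array 31 (-0.78 to -0.41).

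Few stress and metabolic genes were called. In the ATF4 and amino acid response, 1 of 24 genes fell (Ddit4), 21 differences were negative and the median was -0.19. At an unadjusted p under 0.05 in limma, 7 of the 24 were lower and 1 higher. In 9 of the 24 all 6 h arrays lay below all 2 h arrays, against 6.55% of all genes. In 2 they all lay above, against 8.31% of all genes. Slc7a11, a member of this list and of the NRF2 list, had the lowest difference in both (-0.81) and was not called. Gclc, the catalytic subunit of glutathione synthesis, fell by 0.46 ± 0.11 (limma adjusted p = 0.0354), reading 11.95, 12.24 and 12.23 and then 11.59, 11.89 and 11.56, and was the 1 called of 28 NRF2 targets and glutathione genes. The synaptic fusion protein gene Snap25 fell by 0.70 ± 0.13 (adjusted p = 0.008) and Rassf4, a Ras association domain protein, by 0.66 ± 0.15 (adjusted p = 0.0263). Gclc and Rassf4 missed the threshold without the 2 h array 31 (-0.69 to -0.41), 2 h array 32, 6 h array 30 (-0.64 to -0.42) or 6 h array 32 (-0.61 to -0.40), and without the 2 h array 32 Snap25 did too (-0.55 to -0.42 for the 3). No member passed limma's test among cholesterol synthesis and uptake (20 measured), PPAR alpha targets (20), glycolysis and hypoxia (23), endoplasmic reticulum chaperones (20), heat shock proteins (17), ribosome biogenesis (30), ribosomal proteins (17), acute phase proteins (21) or cytochrome P450 and conjugation enzymes (20). At an unadjusted p under 0.05 these 9 lists held 7 higher and 11 lower genes of 188 entries. Of 18 hepatocyte transcription factors none passed (7 lower at an unadjusted p under 0.05), and Cebpb had -0.43 ± 0.11 with adjusted p = 0.058.

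**Figure D4:**
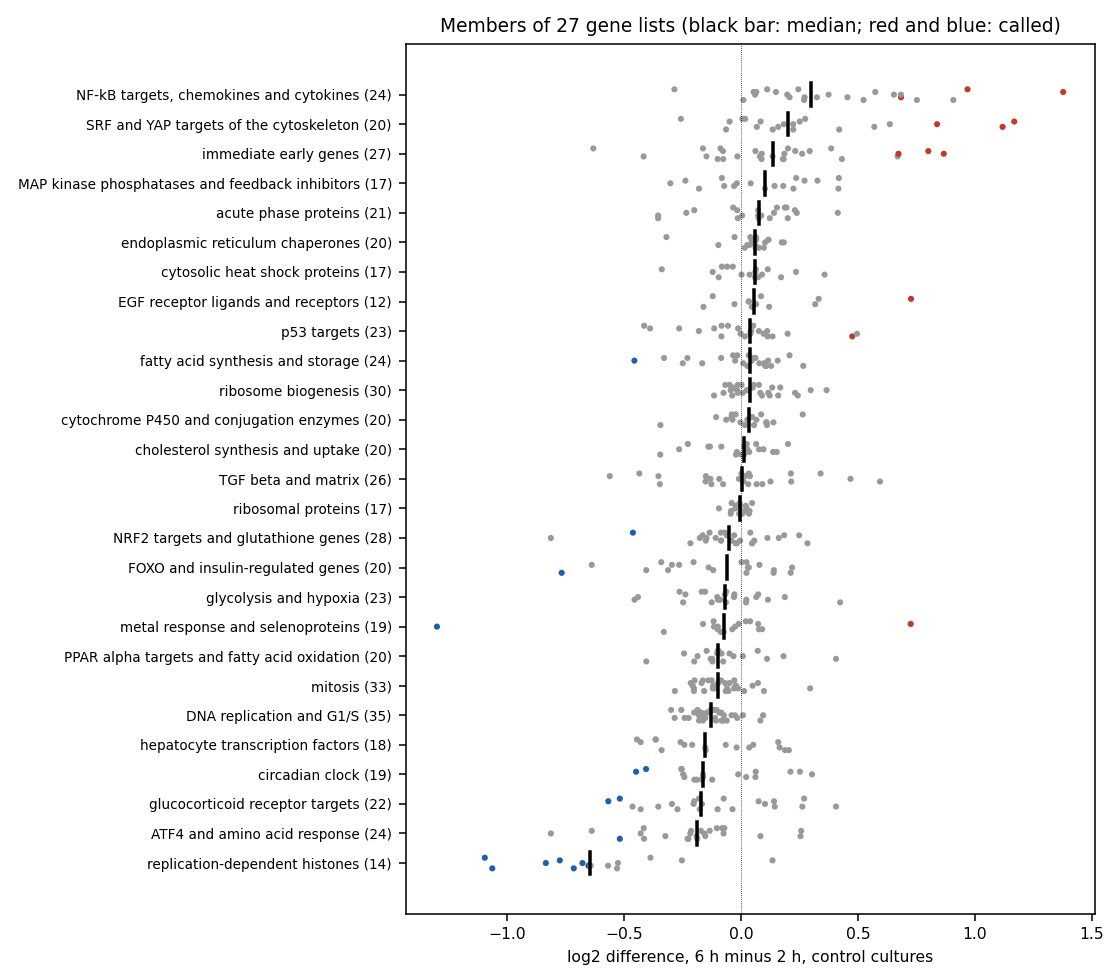
Difference between 6 h and 2 h in control cultures (log2, horizontal axis) for the measured members (number in parentheses) of 27 gene lists, ordered by median; black bars are medians and red and blue points are genes called higher and lower. Medians run from -0.65 for replication-dependent histones to 0.30 for NF-kB targets, and most points are grey.

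The same time step was measured in AMAP and APAP cultures, whose group means share no array with the control comparison. The variance of each gene was pooled over all arrays of the series, so a gene had the same standard error in each step. The overlaps of called genes are therefore not between independent tests. AMAP cultures had 307 genes called (1.54%), 190 higher (0.953%) and 117 lower (0.587%). With each array centred on its median the AMAP split turned to 113 higher and 252 lower. APAP cultures had 126 called (0.632%), 87 higher (0.436%) and 39 lower (0.196%). Same-numbered APAP arrays of the 2 times deviated together. A fit that blocks on the array number (the replicate block) called 269 with APAP (1.35%), of which 185 were higher and 84 lower. Without number 30 in all groups the AMAP count was 24 and the APAP count 7, without number 31 they were 47 and 28, and without number 32 they were 215 and 17. Of the 88 genes higher in control, 56 were called higher with AMAP (63.6% of the control list and 29.5% of the AMAP list) and 39 with APAP (44.3% and 44.8%), or 51 with the block (58.0% and 27.6%). Positive differences numbered 84 of 88 with AMAP and 86 of 88 with APAP, where 61.4% and 46.7% of all genes were positive. Csf2 had 1.51 with AMAP and 1.63 with APAP beside 1.70 in control, Ccl20 had 1.51 and 1.45 beside 1.38, and Myc 0.99 and 0.97 beside 0.80.

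Of the 53 genes lower in control, 32 were called lower with AMAP (60.4% of the control list and 27.4% of the AMAP list) and 5 with APAP (9.43% and 12.8%), or 8 with the block (15.1% and 9.52%). Negative differences numbered 51 of 53 with AMAP and 45 of 53 with APAP, where 38.6% and 53.3% of all genes were negative. Slc30a1 had -1.21 with AMAP and -1.31 with APAP, beside -1.30 in control. Over the 53 genes the median was -0.53 in control, -0.45 with AMAP and -0.24 with APAP. The clustered histones had medians of -0.56, -0.65 and -0.07, with 19 of 29 called lower with AMAP and 0 with APAP (1, H1f2, with the block), where 5 had a 95% interval below 0. Their median level with APAP was 8.02 at both times, against 9.40 and 8.57 in control. The difference between time steps was tested for each gene. For H2ac4 the APAP step exceeded the control step by 1.24 (95% interval 0.64 to 1.83) and for H2bc14 by 0.89 (0.41 to 1.37), and no histone passed the limma test of this difference (smallest adjusted p = 0.50, or 0.326 with the block), although 16 of 29 had a 95% interval above 0. Egr1 had -0.13 with APAP beside 0.87 in control, and Arrdc3 0.41 beside -0.77.

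Over all genes, 1 passed limma's test of AMAP against control time steps (Ripply1, lower with AMAP, 0.00502%; 823 at an unadjusted p under 0.05) and 0 passed that of APAP (680 unadjusted, smallest adjusted p = 0.0989). With a median standard error of 0.14 for such a difference, the arrays resolve these steps less finely than a single comparison (0.10).

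**Figure D5:**
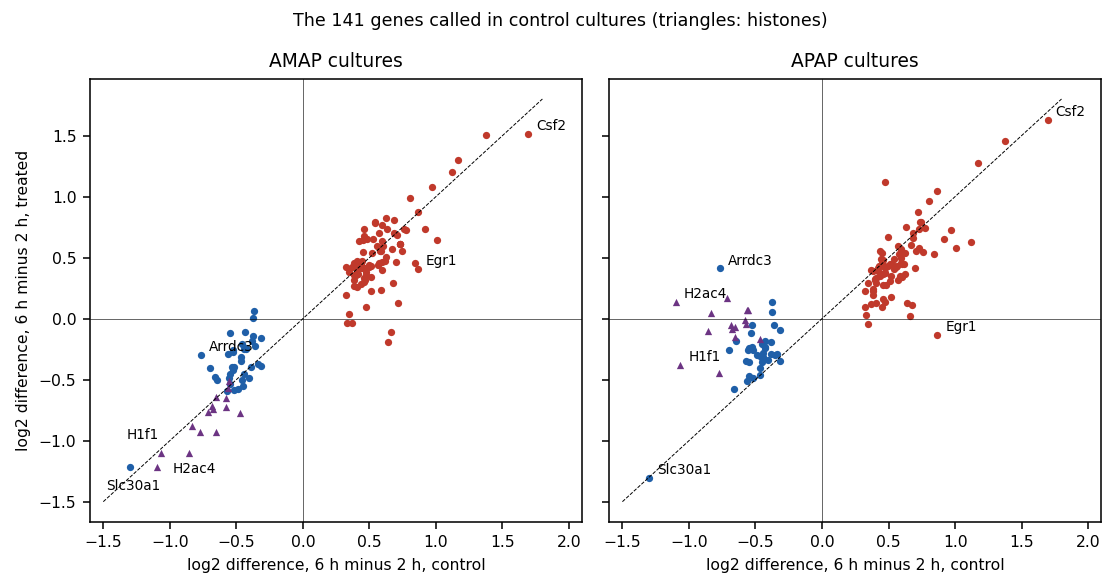
Difference between 6 h and 2 h (log2) in AMAP cultures (left) and APAP cultures (right) against that in control cultures for the 141 genes called in control; red were higher and blue lower in control, purple triangles are histones and the dashed line marks equal values. Slc30a1 lies near the line in both panels (-1.21 and -1.31), and the histones lie between -0.44 and 0.17 with APAP.

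Between 6 h and 24 h in control cultures, a comparison that shares the 6 h arrays, limma called 3 genes lower and 0 higher (0.015%), and 1533 had an unadjusted p under 0.05. The 3 were Irgm1, Apon and Col12a1. Without number 30 in all groups 2 were called, without number 31 there was 1, and without number 32 there were 0. Irgm1, an interferon-induced GTPase of autophagy, read 9.25, 9.31 and 9.24 at 2 h and 9.66, 10.03 and 9.86 at 6 h, rose by 0.58 ± 0.10 (adjusted p = 0.00493), and had a mean of 9.23 at 24 h. Its call between 2 h and 6 h held without each single array. The call was lost with number 30 (0.67), 31 (0.51) or 32 (0.56) left out of all groups. Means at 24 h were 9.14 for Csf2, 10.98 for Ccl20, 10.96 for Ccn1, 8.13 for Egr1, 10.88 for H1f1 and 7.91 for Arrdc3. Of these, Csf2, Ccl20, Egr1, H1f1 and Arrdc3 were nearer their 6 h means, and Ccn1 lay midway between its 2 h mean of 10.40 and its 6 h mean of 11.52. Of the other genes with a 24 h mean given above, Slc30a1 and Cry2 were nearer their 6 h means. Irgm1, Nr1d2 and, by little, Slc39a10 were nearer their 2 h means.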

How the data were processed

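Total RNA of TAMH cultures was hybridised to 27 Affymetrix Mouse Gene 1.0 ST arrays. Per the submitters' processing notes the authors used RMA in Affymetrix Expression Console 1.1, and the deposited table holds log2 values, 1 per probe set and array, none pooled. The range of the values gave the log base, and the annotation level and genome build are not given in the sources used here. The number of arrays limits the precision.

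Of 35557 probe sets, 21789 had 1 gene symbol, 1621 several and 12147 none in the array annotation. For the 999 genes with more than 1 probe set the brightest was used, which gave 19938 genes. RefSeq, with GRCm38.p6 promoters, matched 21698 probe sets by gene identifier.

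With limma 3.58.1 (R 4.3.3), 9 group means were fitted to all 27 arrays (18 residual and 7.30 prior degrees of freedom), and variances were moderated with eBayes. Tests were two-sided, with Benjamini-Hochberg adjustment over 19938 genes and calls at 0.05. The steps were tested on simulated data. In the figures and text, ± is a standard error.

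Members and gene lists were chosen with earlier results of these data known. Of 705 entries in 32 lists, 654 were measured, and of 28 panel genes 26. Named genes were the 12 largest changes each way among called genes that did not overlap and had a mean of at least 6 in the higher group, up to 6 called members per list (2 with the smallest p where none was called), and the panel. The text gives those that bear on a comparison. Families by symbol, and some motifs, were chosen after the values were seen. Lists were described by counts and medians, without a test. Groups were taken from the sample titles. Whether array numbers pair the 2 h and 6 h arrays was checked by the correlation of deviations from group means, with pairing taken where it was above 0.1 in all 3 pairs. It was 0.22, 0.21 and 0.28 with APAP, 0.08, 0.12 and 0.07 with AMAP and 0.07, 0.20 and -0.10 in control, so blocked values stand beside the APAP step. The block was 1 effect per number over all 27 arrays. Alternatives changed the scaling, the probe set per gene, the filter on dim genes, the fold minimum, the variance model (trend, array weights), the block for array numbers and the arrays fitted.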

Additional observations from a re-analysis of the deposited data

Results flagged for a closer look

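Ripply1, a transcriptional co-repressor gene, was the 1 gene whose time step differed between AMAP and control cultures by limma's test of the difference (-0.59 ± 0.09, 95% interval -0.79 to -0.40, adjusted p = 0.0263). In control it read 8.18, 8.11 and 8.17 at 2 h and 8.36, 8.34 and 8.47 at 6 h, a difference of 0.24 that was not called (adjusted p = 0.11). With AMAP the difference was -0.36, and with APAP it was -0.31. The call was lost without each array number in turn, at -0.67 without 30, -0.54 without 31 and -0.57 without 32.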

How the results depend on the processing

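The count of 141 genes called between 2 h and 6 h in control cultures was 271 with the replicate number as a fixed block and 189 as a random block (correlation 0.04). All 141 were among both. The numbers were not taken to pair the control arrays (r of 0.07, 0.20 and -0.10 between same-numbered arrays), but they paired those with APAP. Fitting the 6 control arrays alone gave 82 with a replicate block and 60 without one, while the 9 control arrays gave 133. Rescaling gave 154 (quantile) and 125 (medians centred), dim genes removed 197, array weights 201, and separate tests of all probe sets 113. At 1.5-fold 52 and at 2-fold 8 remained. Without 1 array number in all groups the count lay between 17 and 25, and without 1 control array between 27 and 101. The 37 named genes that were called kept their direction in each of 23 settings, and their call in 596 of 851 gene and setting pairs. With the replicate block, AMAP had 443 genes called and APAP 269, APAP had 195 after quantile scaling, and leaving out a number gave 24 to 215 and 7 to 28. The AMAP and control steps differed in 0 to 2 genes without a number. For control 24 h against 6 h, settings chosen after the values were seen gave 34 with the replicate block, 6 with medians centred and 0 to 2 without a number. Calls rest on 3 arrays a group.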

Other observations

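Genes of contact signalling, chosen after the values were seen, were called among surface proteins. The Eph receptor genes Epha2 and Epha4, tyrosine kinases for ligands on neighbouring cells, rose by 0.68 ± 0.15 and 0.54 ± 0.13 (limma adjusted p = 0.0249 and 0.0422), the 2 called of 13 Eph receptors. The ligand gene Efnb2 read 8.83, 8.90 and 8.53 at 2 h and 9.41, 9.40 and 9.57 at 6 h, and was the 1 called of 8 ephrins (0.71 ± 0.13, adjusted p = 0.00736). Of 9 Notch receptors and ligands, the ligand gene Jag1 rose by 0.62 ± 0.11 and the receptor gene Notch1 fell by 0.56 ± 0.10 (adjusted p = 0.00688 and 0.00696). Efnb2 and Epha2 missed the threshold without the 2 h array 32 or the 6 h array 32, and Epha2 also without the 2 h array 31 (0.68). Epha4 was called without the 2 h array 31 alone of the 6 omissions. Jag1 missed it without the 6 h array 32 and Notch1 without the 2 h array 32. Values of the 4 higher genes were 0.46 to 0.60 without the 2 h array 32 and 0.51 to 0.65 without the 6 h array 32 where the call was lost.

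Copper genes, also chosen afterwards, showed 2 called of 5. Slc31a2, a copper transporter of endosomes, rose by 0.53 ± 0.11 and Atp7a, the copper-exporting ATPase, by 0.40 ± 0.09 (limma adjusted p = 0.0234 and 0.0351). Both missed the threshold without any 1 of 5 arrays (0.32 to 0.56), and Atp7a without the 2 h array 31 as well (0.35). Among negative regulators of signalling, Socs2, an inhibitor of growth hormone signalling, read 8.07, 8.13 and 8.12 at 2 h and 7.30, 7.50 and 7.60 at 6 h (-0.65 ± 0.14, adjusted p = 0.0205) and was the 1 called of 8 SOCS genes. Its call was lost without the 2 h array 31 or 32 or the 6 h array 30 or 31, with values down to -0.56.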
